A study of Triticum aestivum with 6 samples.

Results

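A set of 3 wheat genes on the group 1 chromosomes, TraesCS1A02G320000, TraesCS1B02G332200 and TraesCS1D02G319700, is described here across grain of 2 bread wheats (Triticum aestivum), one with white and one with purple grain. They are 3 of the 107891 genes in the deposited table, and were taken by their identifiers. They had been chosen because an earlier analysis of the same libraries found them higher in purple than in white grain, so that difference is given as a description and carries no test. Each is described in the table as flavonol synthase/flavanone 3-hydroxylase, after a protein of Aegilops tauschii.

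RNA sequencing was done on 3 libraries of white grain and 3 of purple grain, all taken 30 days after flowering from plants kept in pots in a climate chamber. The labels name no cultivar or allele for either wheat, and the purple colour cannot be told apart from any other genetic difference between them. The tissue label is grain, while the extraction protocol speaks of stems and buds. Gliadin and glutenin genes, which are typical of starchy endosperm, made up 8.23% to 21.3% of all FPKM in the 6 libraries. FPKM is the authors' measure of expression, read fragments scaled for gene length and library size.

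Flavanone 3-hydroxylase and flavonol synthase are related 2-oxoglutarate-dependent dioxygenases in the middle of the flavonoid pathway. The first turns flavanones into dihydroflavonols. These are then either reduced by dihydroflavonol reductase on the way to anthocyanins, the purple pigments, or oxidised by flavonol synthase to colourless flavonols. Bread wheat carries A, B and D subgenomes, so most genes have a copy on each of 3 related chromosomes. Reads of such copies can be shared, and the value of a single copy is uncertain for that reason.

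The table places TraesCS1A02G320000 on chromosome 1A (510672254 to 510674036), TraesCS1B02G332200 on 1B (558284222 to 558286064) and TraesCS1D02G319700 on 1D (413729433 to 413731794), each on the plus strand. The genome build was not given in the sources used here. The gene spans were 1783, 1843 and 2362 bp. All 3 carry the KEGG orthology number K05278, which stands for flavonol synthase, the enzyme number EC 1.14.11.23 and the GO term for dioxygenase activity. The orthology number thus names only 1 of the 2 activities in the description, and neither annotation shows what the proteins do.

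Library totals ran from 78660932 to 102868886 counts, and 65058 to 68885 genes had counts in a library. Purple replicate 3 differed from its group. Over all tested genes (genes are not replicates), Pearson's r of log2 expression was 0.849 and 0.868 between it and the other purple libraries, and 0.922 between those. Its r with the white libraries was 0.715 to 0.75, where the other purple libraries reached 0.613 to 0.726. White replicate 1 also differed from its group, with r of 0.867 and 0.844 to the other white libraries and 0.931 between those. It held the only white counts of the group 1 genes. Levels, sums and ratios of the group 1 genes are also given without purple replicate 3, but not without white replicate 1.

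Transcripts of all 3 genes were counted in every purple library and were nearly or wholly uncounted in white grain. The 1D copy, TraesCS1D02G319700, had 0 counts in all white libraries and 528, 392 and 662 counts in purple replicates 1, 2 and 3, or 4.45, 3.48 and 7.07 FPKM. Purple replicate 3 was the highest, and the purple values spanned a 2.03-fold range. The mean was 5.00 ± 1.86 FPKM in purple grain (SD, n = 3). Against a floor of 3 counts in each white library, 0.0312 FPKM on average, the purple mean was at least 160-fold higher, and at least 127-fold higher without purple replicate 3. Such floors and the intervals below cover counting error only.

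The 1B copy, TraesCS1B02G332200, also had 0 counts in all white libraries. It had 526, 483 and 100 counts in purple replicates 1, 2 and 3, or 3.49, 3.38 and 0.841 FPKM. Here purple replicate 3 was the lowest, by 4.02-fold against the lower of the others. The purple mean of 2.57 ± 1.5 FPKM (SD, n = 3) was at least 105-fold above the white floor of 0.0246 FPKM, and at least 140-fold without purple replicate 3.

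The 1A copy, TraesCS1A02G320000, was the only one of the 3 with any count in white grain, 4 counts in white replicate 1 (0.030 FPKM) and 0 in the others. It had 111, 169 and 627 counts in purple replicates 1, 2 and 3, or 0.758, 1.22 and 5.45 FPKM. Purple replicate 3 was 4.48-fold above the higher of the other purple libraries, the reverse of its place for the 1B copy. The purple mean of 2.48 ± 2.59 FPKM was 247-fold the white mean of 0.010 ± 0.0173 FPKM (SD, n = 3 each), with a 95% exact Poisson interval of 96.5 to 907 from the 4 white counts. Without purple replicate 3 the ratio was 98.6.

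**Figure D1:**
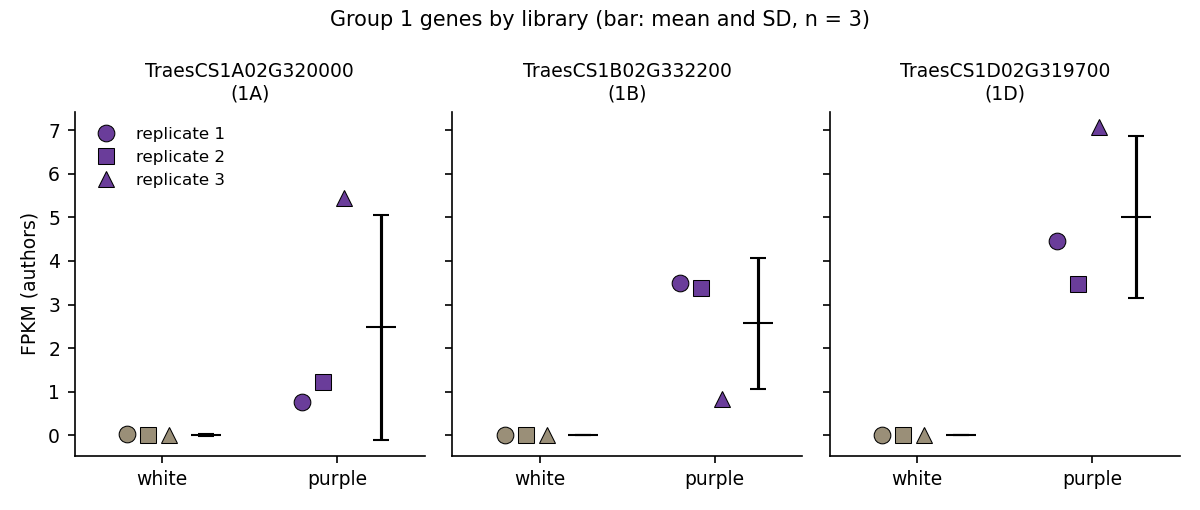
FPKM (vertical axis) of the 3 group 1 genes in each white and purple library, with symbols for replicates 1, 2 and 3 and the mean and SD of 3 libraries beside them. White libraries lie at or near 0, and purple replicate 3 is the highest for the 1A and 1D copies (5.45 and 7.07 FPKM) and the lowest for the 1B copy (0.841 FPKM).

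For each gene the white and purple libraries did not overlap, as was true in this direction for 13.3% of the 48492 genes tested, those with a mean of at least 0.5 FPKM. All 3 members passed that filter, and did so through their purple values. Counts of 0 in every white library were found for 0.734% of the tested genes, the 1B and 1D copies included. By edgeR's quasi-likelihood test (with calls made where the adjusted p, by Benjamini-Hochberg, was under 0.05 and the log2 difference was 1 or more) 2.87% of tested genes were called higher in purple grain, all 3 members among them. The members were chosen by this contrast, so nothing is read from their count. Leaving out white replicate 2, or either of purple replicates 1 and 2, left 1 of the 3 called, and leaving out white replicate 3 left 2. Fewer libraries change the chance of a call for every gene, and the share of all genes called then is not given. In bulk grain, fewer cells of a type and less RNA per cell cannot be told apart.

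The genes were of middling abundance where they were counted. Ranked by FPKM among the genes with counts in each purple library, the 1D copy stood between the 68.1 and 82.6 percentiles. The 1B copy stood at the 66.4 and 67.4 percentiles in purple replicates 1 and 2 and at 39.4 in purple replicate 3. The 1A copy stood at 37.1 and 46.5 in purple replicates 1 and 2 and at 77.9 in purple replicate 3.

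Summed over the 3 copies, the 3 purple libraries lay closer to each other than for any copy alone. The sum was 8.70, 8.08 and 13.4 FPKM in purple replicates 1, 2 and 3, a mean of 10.0 ± 2.89 (SD, n = 3), against 0.010 ± 0.0173 in white grain. Its coefficient of variation was 28.8%, where the single copies had 105% on 1A, 58.3% on 1B and 37.1% on 1D. Without purple replicate 3 the mean sum was 8.39 FPKM and its coefficient of variation 5.22%, and those of the copies were 32.9% on 1A, 2.29% on 1B and 17.3% on 1D, so the 1B copy then varied less than the sum.

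How the 3 copies divided this sum was not used to choose them. The 1D copy held 51.2%, 43.1% and 52.9% of the summed FPKM in purple replicates 1, 2 and 3, a mean of 49.1% ± 5.24 (SD, n = 3) and of 47.1% without purple replicate 3. The 1B copy held 40.1%, 41.8% and 6.29%. The 1A copy held 8.71%, 15.1% and 40.8%. The 1D copy thus kept a share of about the same size in every purple library, while the 1A and 1B copies exchanged places in purple replicate 3.

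By FPKM the 1D copy was above the 1A copy in 3 of 3 purple libraries, by a mean log2 ratio of 1A over 1D of -1.48 ± 1.09 (SD), and above the 1B copy in 3 of 3, by a mean log2 ratio of 1B over 1D of -1.16 ± 1.67. Purple replicate 3 carries most of the latter: the 1B over 1D log2 ratio was -0.35, -0.04 and -3.07 in purple replicates 1, 2 and 3, a mean of -0.20 without it. Without it the 1A over 1D mean was -2.04. An exact two-sided sign-flip permutation test over the 3 libraries gave p = 0.25 for each, the smallest it can give with 3 libraries, and 0.375 after Benjamini-Hochberg adjustment over the 3 pairs. The 1A and 1B copies had a mean log2 ratio of 1A over 1B of -0.33 ± 2.64 (exact permutation p = 1; adjusted p = 1). That mean hides opposite signs, since the ratio was -2.20 and -1.47 in purple replicates 1 and 2, a mean of -1.84, and 2.70 in purple replicate 3. The order of 1D and 1B depends on the length scaling. The 1D copy had 0.787 times as many counts per FPKM as the 1B copy, although its span is the longest, and by CPM (counts scaled to library size alone) it was above the 1B copy in only 2 of 3 purple libraries (exact permutation p = 0.75, n = 3; adjusted p = 1). In purple replicate 1 the counts were 526 on 1B and 528 on 1D.

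The exchange between 1A and 1B was larger than counting error. Of the counts of these 2 genes, the 1A copy took 17.4% in purple replicate 1 (95% Clopper-Pearson interval 14.6 to 20.6) and 25.9% in purple replicate 2 (22.6 to 29.5). In purple replicate 3 it took 86.2% (83.5 to 88.7), 64.6 percentage points above the mean of the others. The intervals of the 3 libraries do not overlap. Over all tested genes, 2.7% had purple replicate 3 at least 4.48-fold above the higher of the other purple libraries, and 3.59% had it at least 4.02-fold below the lower.

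**Figure D2:**
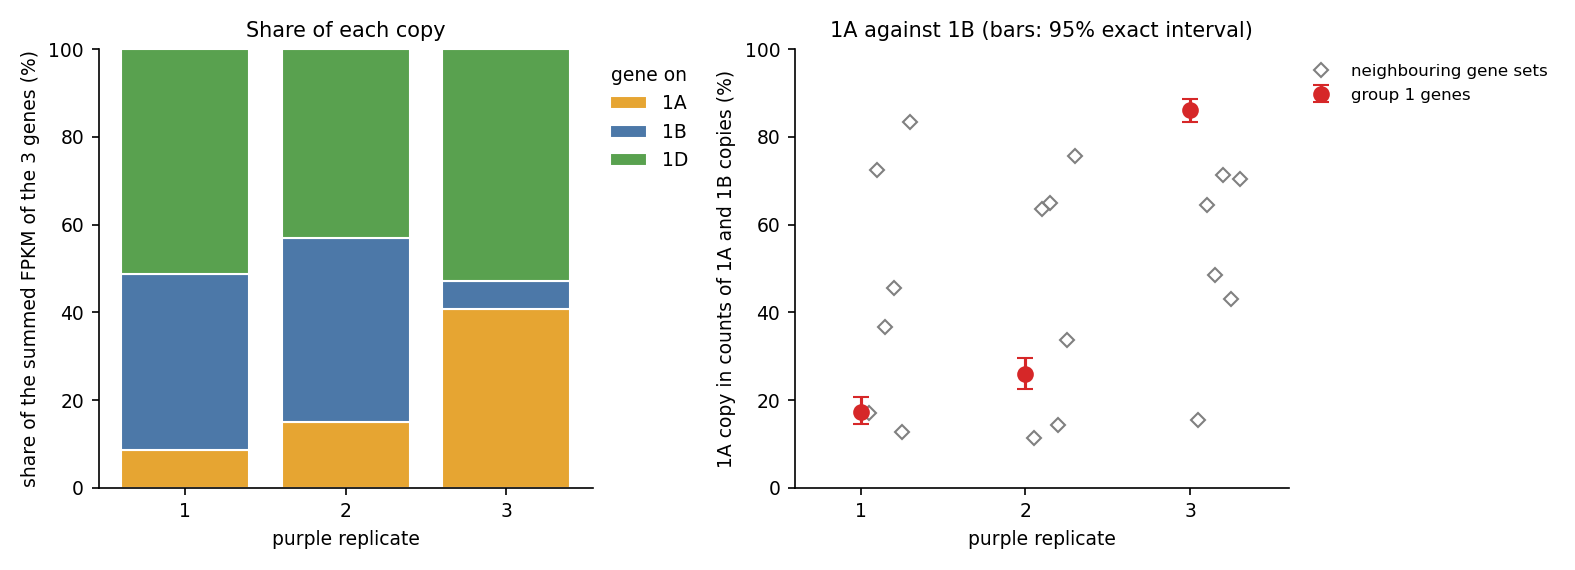
Left, share of the summed FPKM (%) held by the 1A, 1B and 1D copies in each purple library. Right, share (%) of the 1A copy in the counts of the 1A and 1B copies, for the group 1 genes with 95% exact binomial intervals (17.4%, 25.9% and 86.2%) and for 6 sets of neighbouring genes as open diamonds. The neighbouring sets moved by -9.1 to 41.4 percentage points in purple replicate 3, the largest change resting on 28 counts there.

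Marker lists by description differed between grain types and also set purple replicate 3 apart. By edgeR 18 of 96 tested endosperm genes were lower in purple grain and 0 higher, 4 of 20 embryo and aleurone genes were higher and 0 lower, and 0 of 34 green tissue genes were called, beside 2.32% lower and 2.87% higher of all tested genes. The 108 gliadin and glutenin genes of the endosperm summed to 76998 to 155706 FPKM in white grain, 63540 and 68819 in purple replicates 1 and 2 and 177721 in purple replicate 3. The 23 oleosin and late embryogenesis abundant genes of embryo and aleurone summed to 384 to 557 FPKM in white grain, 1813 and 3327 in purple replicates 1 and 2 and 728 in purple replicate 3. The 74 chlorophyll-binding and Rubisco small chain genes of green tissue, here the pericarp, summed to 226 to 291 FPKM in white grain, 42.0 and 28.3 in purple replicates 1 and 2 and 219 in purple replicate 3. Of these lists 5, 2 and 7 genes had no counts in any library. On each list purple replicate 3 lay on the white side of the other purple libraries. The summed level of the 3 group 1 genes did not follow that order, since it was 13.4 FPKM in purple replicate 3 and at most 0.030 in white grain. The part of tissue make-up in the grain difference of the group 1 genes, and in the exchange between the copies, was not tested.

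The 3 genes lie in stretches of matching gene order. Among the 10 genes on each side, a peroxidase gene, a gene for an indole-3-acetic acid-amido synthetase of the GH3 type, which conjugates the hormone auxin to amino acids, and transcription factor IIB genes recur on 1A, 1B and 1D. The next gene downstream carries K05278 on all 3 chromosomes as well. It is TraesCS1A02G320100 and TraesCS1B02G332300, described as protein SRG1, and TraesCS1D02G319800, described as 1-aminocyclopropane-1-carboxylate oxidase 1. All 3 had 0 counts in all 6 libraries. They begin 131, 211 and 46.0 kb from the start of the group 1 gene, and are named here after their values were seen.

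No neighbour was called between grain types by edgeR. Of the 60 genes, 13 had no counts in any library and 25 were tested. Called by edgeR were 0 of these, where 5.19% of all tested genes were called in either direction. An unadjusted p under 0.05 was reached by 6 of the 25, 3 in each direction, DESeq2 called 1 and limma on log2(FPKM + 1) called 0, where the shares of all tested genes were 26.7%, 15.6% and 6.65%. The gene called by DESeq2 was TraesCS1A02G321000, the tenth gene downstream on 1A, described as an uncharacterized protein (log2 difference 1.48, DESeq2 adjusted p = 0.0115). EdgeR called it without purple replicate 3 (adjusted p = 0.0426) and with a replicate block (adjusted p = 0.0306). The median log2 difference was -0.01 around the 1A copy, 0.68 around the 1B copy and -0.84 around the 1D copy, and 0.02 over all tested genes. With 50 genes on each side, a width chosen after seeing the data, 1 was higher and 2 were lower of 98 tested.

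The balance of 1A and 1B in purple replicate 3 moved less in the neighbours than in the group 1 genes. Sets were formed, after values were seen, from neighbours with an identical description found once around each of the 3 genes, which gave 6 sets, 3 with a higher 1A share in purple replicate 3 than in the mean of the others. The 1A share of the peroxidase set (TraesCS1A02G319000 and its counterparts) was 17.0%, 11.4% and 15.5% in purple replicates 1, 2 and 3. That of the GH3 set (TraesCS1A02G320200 and its counterparts) was 12.7%, 33.8% and 43.0%, 19.8 percentage points above the mean of the first and second. An upstream set (TraesCS1A02G319800 and its counterparts, described as an uncharacterized protein) changed most, with 1A shares of 45.6%, 14.3% and 71.4%, 41.4 percentage points up and in the same direction as the group 1 genes. It is thinly counted, with 20 counts on 1A and 8 on 1B in purple replicate 3. The remaining 3 sets moved by -9.1 to -2.3 percentage points. This measure does not show changes between purple replicates 1 and 2. The set of TraesCS1A02G319600 and its counterparts, at -2.3, had 1A shares of 36.7%, 64.9% and 48.5%, on at least 405 counts per library. Within 50 genes on each side, the median log2 ratio of purple replicate 3 over the mean of the other purple libraries was 0.08 on 1A and -0.16 on 1B, and -0.05 over all tested genes. The sets were not tested against the group 1 genes.

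**Figure D3:**
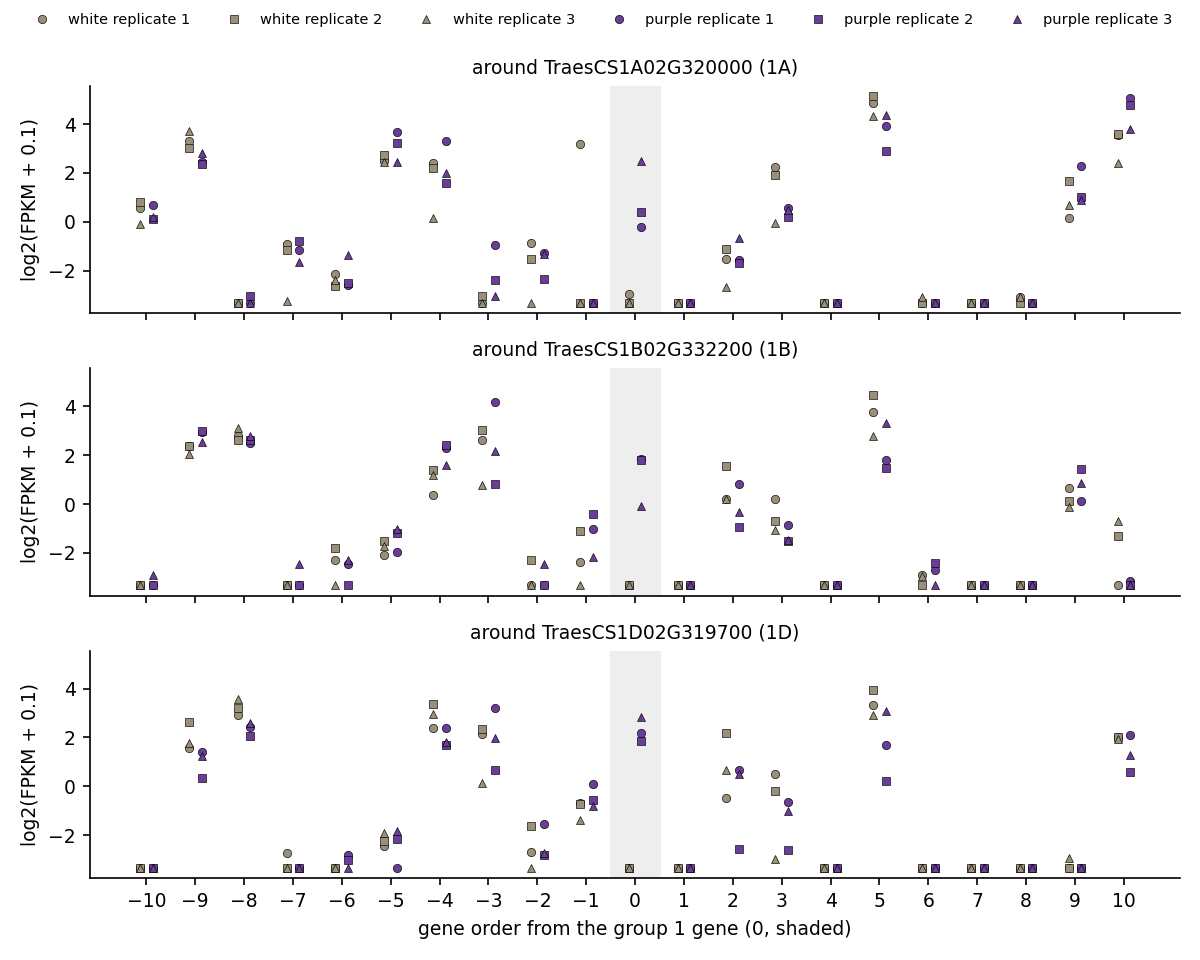
Expression, as log2(FPKM + 0.1), of the group 1 genes (shaded, position 0) and the 10 genes on each side on 1A, 1B and 1D, in gene order, for each white and purple library. White and purple symbols lie apart at position 0 on all 3 chromosomes, and the gene at position 1 is uncounted throughout.

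Other genes with flavonol synthase or flavanone 3-hydroxylase in their description served as the nearest comparison. There were 34 of them, 27 with counts and 17 tested, and edgeR called 0 (5.19% of all tested genes). An unadjusted p under 0.05 was reached by 3 with a positive and 1 with a negative log2 difference, and DESeq2 called the same numbers, 3 higher and 1 lower. Limma on log2(FPKM + 1) called 1 lower. Of all tested genes 26.7% reached that unadjusted p, DESeq2 called 15.6% and limma 6.65%. Their median log2 difference was 0.38 and 13 of the 17 lay above 0, against a median of 0.02 over all tested genes. Whether they differ from the group 1 genes in response was not tested.

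Of the 11 other genes with a description identical to that of the group 1 genes, 5 had no counts and 6 were tested. Their median log2 difference was 2.08, with 5 above 0. Those on 4A, 4B and 4D, TraesCS4A02G109200, TraesCS4B02G195000 and TraesCS4D02G195700, were named after their values were seen. The 4B gene TraesCS4B02G195000 stood at 0.329, 0.063 and 0 FPKM in white replicates 1, 2 and 3 and at 16.0, 3.07 and 0.539 FPKM in the purple ones (edgeR adjusted p = 0.108). Purple replicate 1 carried most of its level. In this gene and in those on 4A and 4D the grain types did not overlap, as was true in this direction for 13.3% of all tested genes. TraesCS4D02G195700 stood at 2.97, 1.95 and 0.49 FPKM in white grain, against 16.3, 4.43 and 3.08 FPKM in the purple libraries (edgeR adjusted p = 0.163), again highest in purple replicate 1. TraesCS4A02G109200 stood at 0.297, 0.063 and 0 FPKM in white grain, against 3.35, 0.722 and 0.553 FPKM in the purple libraries (edgeR adjusted p = 0.174). DESeq2 called all 3 higher, with adjusted p of 0.0417 on 4A, 0.0238 on 4B and 0.0357 on 4D, and so did edgeR with a replicate block for 4B and 4D (adjusted p = 0.0289 and 0.0425).

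Across the purple libraries the sum of these genes took another order than the group 1 sum. The 4A, 4B and 4D genes summed to 35.6, 8.22 and 4.17 FPKM in purple replicates 1, 2 and 3, where the group 1 sum was highest in replicate 3, although the 1B copy alone ran in the same order as they did. The share of the 4A gene in the counts of the 4A and 4B genes was 17.3%, 19.1% and 50.4%, so it too was highest in purple replicate 3. The pair of the same description on 7B and 7D summed to 44.7, 55.5 and 3.34 FPKM in the purple libraries and 20.0, 4.70 and 2.64 FPKM in the white ones, so that the grain types overlapped. Its 7B gene TraesCS7B02G042500, the most expressed of all 34, averaged 6.79 ± 6.65 FPKM over the white libraries and 25.4 ± 19.9 over the purple ones (SD, n = 3; edgeR adjusted p = 0.30).

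Genes described as flavanone 3-hydroxylase of Triticum aestivum itself, the enzyme upstream of both branches, were not called. TraesCS2A02G493500, TraesCS2B02G521500 and TraesCS2D02G493400 summed to 8.88, 9.48 and 8.96 FPKM in white grain, against 15.1, 3.41 and 6.04 FPKM in the purple libraries, and the grain types overlapped. Their edgeR adjusted p was 0.618, 0.553 and 0.738. Genes described simply as flavonol synthase included the nearest to a call. TraesCS6B02G362100 stood at 4.78, 4.42 and 3.56 FPKM in white grain, against 1.06, 1.09 and 1.85 FPKM in the purple libraries. All purple libraries lay below all white ones, the direction opposite to the group 1 genes (log2 difference -1.57 ± 0.35, SE; edgeR adjusted p = 0.0545). It was called lower by DESeq2 (adjusted p = 0.00119) and without purple replicate 3 (edgeR adjusted p = 0.0283).

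**Figure D4:**
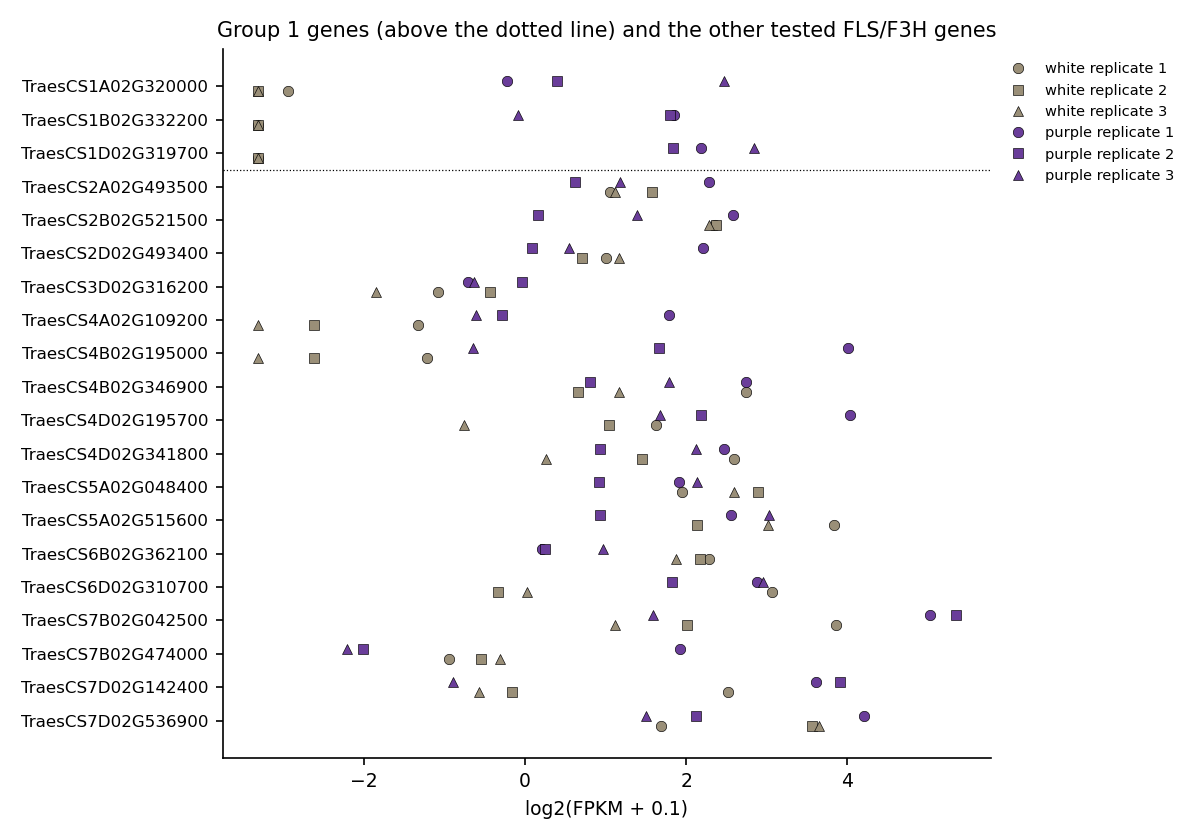
Expression, as log2(FPKM + 0.1), of the 3 group 1 genes and of the 17 other tested genes with flavonol synthase or flavanone 3-hydroxylase in their description, for each white and purple library. In the group 1 genes all purple libraries lie above all white ones, which is how they were chosen; in most of the others the grain types overlap or lie close together.

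The rest of the pathway was taken from 12 lists by description, with 110 tested genes. Of these edgeR called 7 higher and 2 lower in purple grain, beside 2.87% and 2.32% of all tested genes, and their median log2 difference was 0.33. The count changed with the libraries used. It was 1 gene in all without white replicate 3 or purple replicate 2, 3 without white replicate 2 and 16 without purple replicate 3. Leaving out a library changes the chance of a call for every gene. The share of all tested genes called is not given for these fits, so whether the change is particular to the pathway is not shown. Lists of chalcone isomerase, which closes the flavonoid ring, and of anthocyanidin synthase had no member above the filter, so none was tested. Of the 5 anthocyanidin synthase genes 4 had counts. Grain types did not overlap in TraesCS6A02G001500 and TraesCS6D02G004300, as for 13.3% of tested genes in this direction. Both were named after their values were seen. They averaged 0.108 and 0.0449 FPKM over the white and 0.809 and 0.789 over the purple libraries. TraesCS6A02G041800 overlapped, and TraesCS6B02G006200 had at most 6 counts in a library.

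Upstream of the group 1 genes, chalcone synthase, which makes the first flavonoid, had 3 higher genes of 10 tested and 0 lower. All 3 carry K00660, the chalcone synthase number, as do 6 of the 10. The one with the smallest adjusted p, TraesCS2B02G048400, was uncounted in white grain (0 counts) and stood at 3.71, 1.87 and 2.14 FPKM in purple replicates 1, 2 and 3, a rise of at least 115-fold (edgeR adjusted p = 0.00854). Its purple level was thus of the size of that of the 1B copy, but highest in purple replicate 1. The most expressed gene of the list lay the other way. TraesCS4D02G351300, described as chalcone synthase 8 but with another orthology number (K17212), stood at 6.89, 15.4 and 18.5 FPKM in white grain, against 0, 0 and 0.781 FPKM in the purple libraries (log2 difference -5.58, edgeR adjusted p = 0.118). It was called lower by limma on log2(FPKM + 1) (adjusted p = 0.00412) and by edgeR without purple replicate 3 (adjusted p = 0.0101). TraesCS5A02G526900, of the same description and number and named after its values were seen, was called lower in these 2 ways as well. An unadjusted p under 0.05 was reached by 5 genes of the list with a positive and 3 with a negative difference.

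Cinnamate 4-hydroxylase, which acts in the phenylpropanoid route that feeds chalcone synthase, had 1 higher gene of 4. TraesCS2D02G300200 stood at 1.25, 4.48 and 1.31 FPKM in white grain, against 48.6, 49.9 and 17.8 FPKM in the purple libraries (edgeR adjusted p = 0.0196; the call was lost when white replicate 3 or either of purple replicates 1 and 2 was left out). Purple replicate 3 was the lowest of the purple libraries there, as for the 1B copy.

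Downstream, dihydroflavonol reductase, which competes with flavonol synthase for dihydroflavonols, had 3 higher and 1 lower of 42 tested genes that are so described. All 4 carry K09753, the number of cinnamoyl-CoA reductase, a related enzyme of the lignin route, as do 35 of the 42. Of the 4 tested genes with K13082, the dihydroflavonol reductase number, edgeR called 0, so its calls are not tied to that enzyme by the orthology. DESeq2 called 1 of these 4 lower, TraesCS7A02G450700 (log2 difference -1.15, DESeq2 adjusted p = 0.0151). Over the whole list DESeq2 called 7 higher and 6 lower, beside 15.6% of all tested genes. An unadjusted edgeR p under 0.05 was reached by 8 with a positive and 6 with a negative difference, beside 26.7%. TraesCS4A02G331600 had the smallest adjusted p of that list. It stood at 6.97, 5.72 and 3.36 FPKM in white grain, against 32.2, 48.3 and 25.3 FPKM in the purple libraries. Its log2 difference was 2.82 with an SE of 0.39 (edgeR adjusted p = 0.016). It lost this call when white replicate 2 or 3 or purple replicate 2 was left out. Leucoanthocyanidin reductase, which leads to colourless proanthocyanidins, had 1 lower of 5 tested genes that are so described. All 5 carry K08695, the anthocyanidin reductase number, and the 4 genes with K13081, that of leucoanthocyanidin reductase, had no counts. TraesCS2D02G482100 stood at 1.59, 1.73 and 1.39 FPKM in white grain, against 0.205, 0.0987 and 0.239 FPKM in the purple libraries (edgeR adjusted p = 0.0213), and lost its call when any 1 of white replicates 2 and 3 and purple replicates 1 and 2 was left out.

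The remaining lists, those without an edgeR call, were phenylalanine ammonia-lyase, 4-coumarate-CoA ligase, anthocyanidin glucosyltransferase, anthocyanidin reductase, flavonoid 3'-hydroxylase and flavonoid 3',5'-hydroxylase, with 50 tested genes. An unadjusted p under 0.05 was reached by 8 of the 50, DESeq2 called 4 higher and 2 lower and limma 1 in each direction, against 26.7%, 15.6% and 6.65% of all tested genes. Nearest to a call, with the same adjusted p, were 2 genes described as anthocyanidin 5,3-O-glucosyltransferase, an enzyme that attaches sugar to anthocyanidins. One was TraesCS7D02G198300. White grain had 0 counts of it, and purple replicates 1, 2 and 3 stood at 0.333, 4.24 and 8.22 FPKM (edgeR adjusted p = 0.0519). Like the 1A copy it was lowest in purple replicate 1 and highest in purple replicate 3. The other, TraesCS3B02G598400, had the reverse order, with 0, 0.0477 and 0.0771 FPKM in white grain, against 6.69, 2.06 and 0.509 FPKM in the purple libraries (edgeR adjusted p = 0.0519). DESeq2 called both higher. The phenylalanine ammonia-lyase gene TraesCS1B02G122800, of the entry enzyme, stood at 1.95, 4.16 and 2.13 FPKM in white grain, against 0.591, 0.0651 and 0.102 FPKM in the purple libraries (edgeR adjusted p = 0.076), and was called lower without purple replicate 1, by DESeq2 and by limma.

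For the other lists the gene with the smallest adjusted p was further from the threshold. Flavonoid 3',5'-hydroxylase gene TraesCS5A02G518800, of the enzyme that adds hydroxyl groups to the B ring, averaged 0.559 ± 0.298 FPKM over the white and 2.02 ± 0.94 over the purple libraries (SD, n = 3; edgeR adjusted p = 0.119). TraesCS5B02G209100, on the flavonoid 3'-hydroxylase list by its description, had 1.56 ± 1.59 and 0.561 ± 0.253 FPKM (edgeR adjusted p = 0.326). All 4 tested genes of that list carry the orthology number K07408, and its 3 genes with another number, K05280, had no counts. TraesCS6B02G450600, described as 4-coumarate-CoA ligase-like and carrying K10526, the number of a ligase of jasmonate synthesis rather than K01904 of 4-coumarate-CoA ligase, had 2.99 ± 0.453 and 1.38 ± 0.354 FPKM (edgeR adjusted p = 0.127). Anthocyanidin reductase gene TraesCS2A02G481700, of the proanthocyanidin branch, had 2.04 ± 1.66 and 0.427 ± 0.0931 FPKM (edgeR adjusted p = 0.168).

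**Figure D5:**
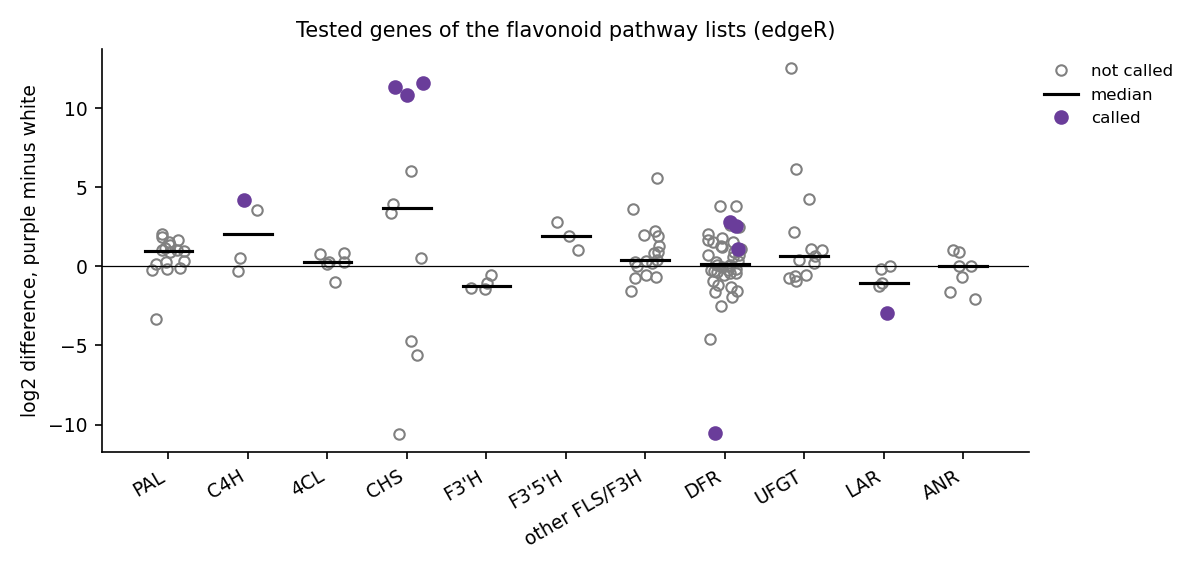
Log2 difference of purple minus white grain (edgeR) for the tested genes of each list, with called genes filled and the list's median as a bar. PAL is phenylalanine ammonia-lyase, C4H cinnamate 4-hydroxylase, 4CL 4-coumarate-CoA ligase, CHS chalcone synthase, DFR dihydroflavonol reductase, UFGT anthocyanidin glucosyltransferase, LAR and ANR the leucoanthocyanidin and anthocyanidin reductases; the group 1 genes are left out. Medians run from -1.22 for flavonoid 3'-hydroxylase (F3'H) to 3.66 for chalcone synthase, and values beyond about 10 belong to genes uncounted in one grain type, for which the fitted size depends on the prior count.

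The genes whose pattern over the 6 libraries was most like the summed group 1 genes came from other families. Likeness was Pearson's r of log2(FPKM + 1) with the log2 of the summed group 1 FPKM, over 15299 genes that averaged 1 FPKM or more and had an informative description, of which 1.22% had an r of at least 0.95. Any gene high in purple and absent in white grain scores high on this measure, so it is a description. The closest was TraesCS1A02G041300, described as subtilisin-chymotrypsin inhibitor-2A, a small protease inhibitor, with r = 0.9994. It had 0, 0.0765 and 0.0873 FPKM in white grain, against 7.33, 7.10 and 11.3 FPKM in the purple libraries. The second, TraesCS7D02G509900, described as a proline-rich protein, had 0.225, 0 and 0 FPKM in white grain, against 19.1, 16.7 and 31.0 FPKM in the purple libraries (r = 0.9993).

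The other 3 had 0 counts in every white library. The serine carboxypeptidase-like gene TraesCS1A02G331100, at 520122569 to 520125966 on 1A, the same chromosome as the 1A copy, had 2.61, 2.64 and 3.21 FPKM in purple grain (r = 0.9988). The glucan endo-1,3-beta-glucosidase gene TraesCS4B02G225100, of a family that cuts callose and related glucans, had 1.69, 2.0 and 2.48 FPKM (r = 0.9974). The beta-glucosidase gene TraesCS5B02G393300 had 1.96, 1.61 and 2.73 FPKM (r = 0.9973). All 5 were highest in purple replicate 3, as was the group 1 sum that they were chosen to resemble.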

How the data were processed

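RNA of 3 white-grain and 3 purple-grain libraries was sequenced. Cutadapt, HISAT2 and StringTie are listed in the submitters' processing notes. Their versions, the strand setting, the build and the annotation are not given in the sources used here. The deposited values are, per the file headers, a count and an FPKM for each gene and library, the FPKM scaled by the authors. The headers do not say whether the counts are raw. Where the count was 0 the authors wrote 0.0001 FPKM (100% of cases), which was taken as 0. A further 12 value columns, of 6 libraries without a matching label, were left unused. No gene identifier matched the supplied reference table, and no sequence is shown.

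Nothing in the labels says that libraries of a grain type are separate plants, and the p-values cover only the spread of these libraries, which could be technical. Counts were tested with edgeR 4.0.16 (R 4.3.3; TMM scaling, quasi-likelihood test, no replicate block) on genes averaging 0.5 FPKM or more, adjusted over all 48492. DESeq2 1.42.0 and limma 3.58.1 were alternatives. On simulated counts for these 48492 genes, edgeR recovered 34% of 50 genes changed 4-fold, 82% at 8-fold and 98% at 16-fold, with 5 unchanged genes called. The changed genes averaged more than 50 counts. The simulated spread followed the trend of spread with expression and set no library apart, so recovery may be lower in the real libraries. The floor in FPKM was 3 counts divided by the gene's counts per FPKM in that library.

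The members, lists and tests were chosen with earlier results of these data known. The rule for named genes took the members, called genes and the most expressed of their family, for each pathway list the gene with the smallest adjusted p and the most expressed (the latter mostly left out of the text), called neighbours and the 5 genes most alike. Other alternatives were the scaling, filter, pseudocount, a replicate block and leaving out each library.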

Additional observations from a re-analysis of the deposited data

How the results depend on the processing

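The log2 ratios of the 3 group 1 genes kept their sign under every alternative run. Leaving out 1 of 3 libraries cannot move a mean share by as much as 1 SD, so closeness on that scale is not read. Without purple replicate 3 the log2 ratio of the 1A copy went from 7.95 to 6.62. Its mean share went from 21.5% to 11.9%, and that of the 1B copy from 29.4% to 41.0%. The mean share of the 1D copy was 43.5% by CPM in place of 49.1% by FPKM, since length scaling is then left out. The number of group 1 genes called was 3 with all libraries and 1 to 3 without single libraries. Of the other flavonol synthase and flavanone 3-hydroxylase genes, edgeR called 0, 1 lower with total-count scaling and 0 to 1 without single libraries. Without white replicate 1 it called TraesCS6D02G310700 higher (adjusted p = 0.0282), and without purple replicate 3 TraesCS6B02G362100 lower. Limma called 1 lower with either pseudocount, and DESeq2 called 4, 3 higher and 1 lower. Of the 110 tested pathway genes edgeR called 9, beside 5.19% of all tested genes, and DESeq2 called 27, beside 15.6%. EdgeR called 5 at a mean of at least 1 FPKM, a filter that leaves fewer genes tested. Limma on log2(FPKM + 0.1) called 17, and edgeR called 1 to 16 without single libraries. For these other settings the share of all tested genes is not given here. Of the neighbours 0 were called, 1 by DESeq2, 3 with 50 genes on each side, which adds genes, and 0 to 1 without single libraries. Apart from these constructions the cause was not tested.

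Same-numbered libraries were not paired by the labels. Their deviations from the group means correlated at 0.12, 0 and 0.228 for replicates 1, 2 and 3. Those of differently numbered libraries correlated at -0.22 to 0.087. Whether libraries of the same number belong together was not tested. White replicate 2 correlated best with purple replicate 1 (0.087), and white replicates 1 and 3 with the purple library of the same number. With the replicate block the calls were 2 of the group 1 genes, 2 of the other family genes, 9 of the pathway and 1 neighbour. Depth limits the white values: a count of 0 allows up to 3 counts, 0.0231 to 0.0326 FPKM for the 1B and 1D copies.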

Other observations

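The orthology number K05278 is carried by 171 genes besides the group 1 genes, of which 98 had counts and 58 were tested. By edgeR 2 were higher and 1 lower in purple grain, a share near the 5.19% of all tested genes, and the median log2 difference of the 58 was 0.47 against 0.02. Nothing is read from that edgeR count. An unadjusted edgeR p under 0.05 was reached by 14 with a positive and 5 with a negative difference, beside 26.7% of all tested genes. DESeq2 called 15 higher and 4 lower, beside 15.6% of all tested genes. Limma on log2(FPKM + 1) called 2 in each direction, beside 6.65%. The 3 genes called by edgeR were named after their values were seen, and none has flavonol synthase in its description. TraesCS7A02G140100, described as protein SRG1, had 0.0903, 0.109 and 0.119 FPKM in white grain, against 3.68, 1.61 and 0.764 FPKM in the purple libraries (edgeR adjusted p = 0.0248). TraesCS7A02G159200, described as a predicted protein of barley, averaged 0.715 ± 0.288 FPKM over the white and 3.01 ± 0.69 over the purple libraries (SD, n = 3; edgeR adjusted p = 0.0351). TraesCSU02G044600, without a chromosome, averaged 1.37 ± 0.269 FPKM over the white libraries (SD, n = 3) and was uncounted in the purple ones (0 counts; edgeR adjusted p = 0.0132).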
